A study of Mus musculus with 9 samples.

Results

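The baseline repertoire described here is the set of miRNAs in the 3 libraries labelled normal glucose, out of 9 libraries in the series. They hold small RNA from extracellular vesicles, the membrane-bound particles that cells shed into the medium, of a conditionally immortalized mouse podocyte line. Such a line is one that divides at a permissive temperature with interferon-γ and differentiates once moved to body temperature without it, and it is a culture model of podocytes. Per the labels' protocols, differentiation took 10 days on collagen in a serum-containing medium (fetal bovine), and treatment meant a further 48 h at 5.3 mM glucose, without the mannitol that the osmotic control arm received. Vesicles were precipitated from the supernatant with a polymer reagent. The labels do not say whether the 3 libraries came from separate cultures, so each SD below measures only the spread between these libraries, which may be technical. Membership was set by the treatment label alone, and no other group enters the results.

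Each library had 1 table of 1915 mouse mature miRNA identifiers. An identifier counts as listed where its count is above 0, and 288 identifiers were listed in all 3 libraries. A further 49 were listed in 2 libraries and 61 in 1, which makes 398 in any. Total miRNA counts were 1539514, 1087144 and 1107224 in replicates 1, 2 and 3, and 362, 314 and 347 identifiers were listed there. No library had a count between 1 and 9, the lowest above 0 being 10, and a 0 is therefore read as anything up to 9 reads. A count of 10 corresponds to 6.50, 9.20 and 9.03 CPM, where CPM is the count of an identifier in each 1000000 miRNA counts of its library. The 288 identifiers held 99.9% ± 0.0304 of the counts (SD, n = 3). Levels below are CPM, mean ± SD over the 3 libraries, unless a library is named, and they are shares of the miRNA counts, so they say nothing of how many vesicles or molecules were released.

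A miRNA is a short RNA that guides a silencing complex to messenger RNAs, chiefly through its seed, the bases that follow its first base. It is cut from a hairpin precursor, and either the 5p or the 3p side of the stem can be kept as the guide while the other side, the passenger, is usually degraded. Hairpins that lie close together on a chromosome are often transcribed as a single primary transcript. Podocytes line the outer face of the glomerular capillaries and form the last layer of the kidney filter, and loss of miRNA processing in them damages that filter in mice. The miR-30 family is known for high expression in podocytes, miR-21 for fibrosis and growth, and miR-10 for its place in Hox gene clusters.

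The sequences below belong to the seed families that held most of the counts, and they show what the leading members of a family share and how little some of them differ. They are RefSeq mature sequences of the GRCm38.p6 build, 5′ to 3′, and capitals mark the seed, bases 2 to 8. Of the 288 identifiers, 251 matched an entry by name. Those without an entry include miR-378a-3p, miR-30d-5p, miR-30b-5p, miR-151-3p, miR-532-5p, miR-122-5p, miR-143-3p, miR-23b-3p, miR-486a-5p and miR-1a-3p.
miR-10a-5p: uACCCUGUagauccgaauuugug
miR-10b-5p: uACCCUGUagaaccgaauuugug
miR-30a-5p: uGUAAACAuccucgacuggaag
miR-30e-5p: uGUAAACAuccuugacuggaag
miR-30c-5p: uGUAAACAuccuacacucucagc
let-7c-5p: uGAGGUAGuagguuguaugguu
let-7i-5p: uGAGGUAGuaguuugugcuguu
let-7b-5p: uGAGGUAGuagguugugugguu
let-7f-5p: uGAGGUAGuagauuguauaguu
let-7g-5p: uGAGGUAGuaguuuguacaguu
let-7a-5p: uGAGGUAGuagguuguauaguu
miR-21a-5p: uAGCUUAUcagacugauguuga
miR-25-3p: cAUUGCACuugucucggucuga
miR-92a-3p: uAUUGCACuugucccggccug
miR-27b-3p: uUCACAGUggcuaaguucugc
miR-27a-3p: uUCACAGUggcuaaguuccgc
miR-100-5p: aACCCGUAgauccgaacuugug
miR-99b-5p: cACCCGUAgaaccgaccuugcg
miR-99a-5p: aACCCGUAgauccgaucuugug
miR-148a-3p: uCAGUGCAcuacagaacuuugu
miR-152-3p: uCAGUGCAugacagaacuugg
Counted from 1 at the 5′ end, with the base of the first-named miRNA first, miR-10a-5p and miR-10b-5p differ by U12A alone. The same holds for miR-27b-3p and miR-27a-3p (U19C), let-7c-5p and let-7b-5p (A17G), let-7c-5p and let-7a-5p (G19A), let-7a-5p and let-7f-5p (G12A), miR-99a-5p and miR-100-5p (U16A), and miR-30a-5p and miR-30e-5p (C13U). The sources used here do not say how reads were assigned between such neighbours, so the split within a family is less certain than its sum. Identical counts in all 3 libraries occurred in 4 pairs, among them miR-486a-5p with miR-486b-5p and miR-199a-3p with miR-199b-3p, and which copy they came from cannot be told.

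Vesicle miRNA was concentrated in few identifiers, and 3 of them stood far above the rest. The first place was held by miR-10a-5p in replicates 1 and 2, at 97326 and 106864 CPM, and it was rank 3 in replicate 3 at 96849 CPM. There miR-30a-5p led with 106766 CPM, after 87587 CPM and 93445 CPM in replicates 1 and 2. The levels of miR-10b-5p were 86888, 97611 and 99610 CPM. The ranges of these 3 miRNAs overlapped, so their order among themselves was not fixed by these libraries. Together the 3 highest identifiers of each library took 27.2%, 29.8% and 30.3% of counts.

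A step followed. The growth-associated miR-21a-5p had 55028, 49673 and 57047 CPM, all below the lowest value of the leading 3. Its neighbour miR-378a-3p, from an intron of a gene of mitochondrial energy metabolism, had 57299, 47714 and 52836 CPM and overlapped with it. Next stood miR-30d-5p at 36849, 41183 and 31603 CPM, again below every value of the identifier above it. Among the 19 pairs of neighbours in the order of the 20 highest, these steps, below miR-10b-5p and below miR-378a-3p, were the 2 at which ranges did not overlap. All other neighbours changed places in at least 1 library.

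**Figure D1:**
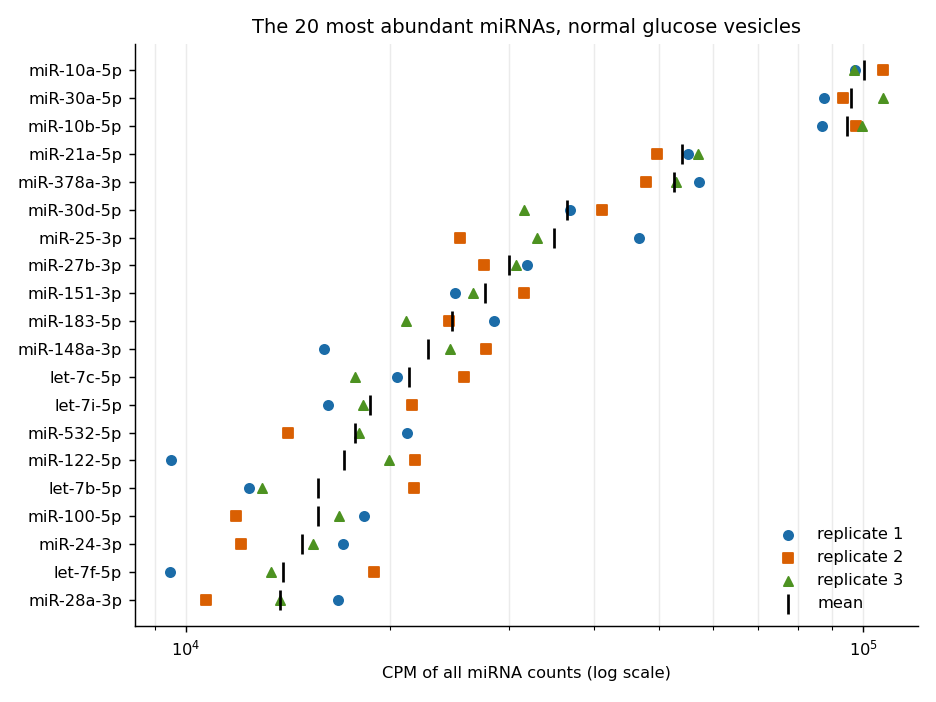
CPM (log scale) of the 20 identifiers of highest mean, with a point for each of the 3 normal glucose libraries and a bar for the mean. Values of the first 3 identifiers lie between 86888 and 106864 CPM, and of the 19 neighbouring pairs all but 2, miR-10b-5p with miR-21a-5p and miR-378a-3p with miR-30d-5p, overlap.

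Of the 20 highest by mean, 15 were among the 20 highest of every library, and of the 10 highest, 8 were in the top 10 of every library. The exceptions in the top 10 were miR-25-3p, which was rank 6 in replicates 1 and 3 but 11 in replicate 2, and miR-183-5p, which was rank 9, 12 and 11. By mean, miR-27b-3p at 30034 ± 2261 CPM and miR-151-3p at 27675 ± 3427 CPM stood between these, and miR-148a-3p at 22768 ± 6078 CPM followed miR-183-5p. The liver-enriched miR-122-5p was rank 24 in replicate 1, with 9508 CPM, and rank 13 and 12 in replicates 2 and 3, with 21809 and 19975 CPM. The remaining members of the top 20 were let-7c-5p, let-7i-5p, miR-532-5p, let-7b-5p, miR-100-5p, miR-24-3p, let-7f-5p and miR-28a-3p, from 21353 ± 4032 CPM down to 13753 ± 3022 CPM.

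The number of identifiers needed to reach 50% of the counts was 9, 9 and 8, and for 90% it was 44, 43 and 45. For 99% it was 132, 123 and 137. Of the 288 identifiers, 24 had a mean of at least 10000 CPM, 74 of at least 1000 CPM and 160 of at least 100 CPM, and the median was 145 CPM. At the low end, 32 lay under 20 CPM.

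**Figure D2:**
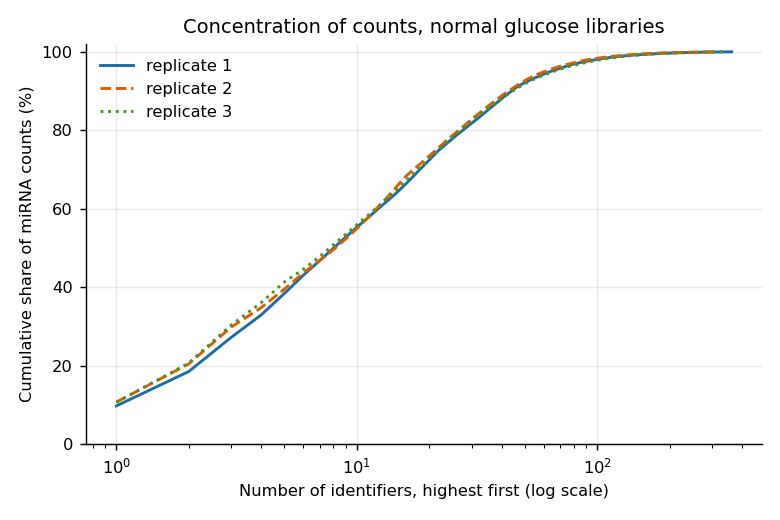
Cumulative share of miRNA counts against the number of identifiers taken from the highest down (log scale), with a line for each library. The 3 lines nearly coincide and pass 50% at 8 or 9 identifiers and 90% at 43 to 45.

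Grouped by seed, the 251 identifiers with a sequence fell into 203 seeds, of which 29 were shared by at least 2 identifiers. These shared seeds covered 77 identifiers and 58.7% ± 0.869 of all miRNA counts. The 5 highest families together held 45.9%, 49.1% and 47.7% of counts in replicates 1, 2 and 3. Family sums and their order cover only identifiers that have a sequence entry.

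The ACCCUGU seed, that of miR-10a-5p and miR-10b-5p, led with 184214, 204475 and 196459 CPM. Its 2 members took near equal parts, and the ratio of miR-10a-5p to miR-10b-5p was 1.12, 1.09 and 0.972. They come from different Hox clusters: Mir10a lies on chromosome 11 at 96317165 to 96317274 (GRCm38, plus strand), and Mir10b on chromosome 2 at 74726070 to 74726137 in introns of Hoxd3 and Hoxd4.

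The GUAAACA seed of the miR-30 family had 89484, 95181 and 108499 CPM from miR-30a-5p, miR-30c-5p and miR-30e-5p, and miR-30a-5p alone made up 98.2% of that sum. Here miR-30c-5p stood at 898 ± 310 CPM and miR-30e-5p at 890 ± 217 CPM. By name the family also includes miR-30d-5p and miR-30b-5p, and its 5 members then summed to 126420, 136414 and 140209 CPM. Within it miR-30b-5p had only 87.0, 50.6 and 107 CPM, far below the other 4 members.

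The let-7 seed, GAGGUAG, had the most members, 9 identifiers, and no single leader. This family is known for rising with differentiation and for restraining growth genes. Its sum was 68270, 103443 and 74885 CPM, with replicate 2 the highest. Its largest member, let-7c-5p, made up 25.98% of it, followed by let-7i-5p at 18687 ± 2707 CPM, let-7b-5p at 15679 ± 5226 CPM, let-7f-5p at 13927 ± 4743 CPM and let-7g-5p at 7772 ± 1158 CPM. The first-described member, let-7a-5p, reached 2321, 5606 and 2723 CPM.

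Behind these, miR-21a-5p was alone with its seed. The AUUGCAC seed covers miR-25-3p and miR-92a-3p, which derive from clusters linked to cell growth, and miR-92b-3p. It summed to 61569, 37846 and 39829 CPM, with replicate 1 well above the others. Of this sum, 75.4% was miR-25-3p. The UCACAGU seed of miR-27b-3p and miR-27a-3p had 34336 ± 2446 CPM, of which miR-27b-3p made up 87.5%. The ACCCGUA seed had 33100 ± 5397 CPM, spread over miR-100-5p (15674 ± 3399 CPM), miR-99b-5p (13253 ± 3305 CPM) and miR-99a-5p (4173 ± 582 CPM). The CAGUGCA seed had 31347 ± 5749 CPM, with miR-148a-3p at 72.6% of it, miR-152-3p at 6954 ± 548 CPM and miR-148b-3p at 1624 ± 176 CPM. The single-member seeds of miR-183-5p, a sensory-organ miRNA, and miR-24-3p, at 24701 ± 3657 and 14840 ± 2538 CPM, closed the 10 highest seeds with a sequence entry. Identifiers without an entry have no place in this order: miR-378a-3p alone, at 52616 ± 4796 CPM, exceeded the sum of the AUUGCAC seed, and miR-151-3p, miR-532-5p and miR-122-5p each exceeded miR-24-3p.

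Silencing proteins are known to favour guides with U as the first base. Of the 251 identifiers with a sequence, 110 began with U (43.8%), near the 40.2% among the 1623 identifiers of the table that have an entry. Weighted by counts, U stood first in 75.6% ± 3.97 of the counts of the 251, and G in 0.626% ± 0.0412. Leading miRNAs shown above, such as miR-10a-5p, miR-30a-5p and miR-21a-5p, begin with U and carry much of that weighted share. Annotated length was 22 bases for 142 identifiers, which held 57.1% ± 0.0980 of these counts, and 23 bases for 36 identifiers with 29.1% ± 1.36. GC content had a Spearman's rho of -0.0576, -0.160 and -0.183 with CPM across the 251 identifiers in the 3 libraries. Identifiers share a library and its preparation and are not independent, and a rho of this size is no finding.

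Counts of many hairpins lay mostly on 1 arm, though for most of these the other arm was under the listing limit. Of the 288 identifiers, 122 were 5p arms, 140 were 3p arms and 26 had no arm in their name. The 5p arms, though fewer, held 62.5%, 67.3% and 65.4% of counts in replicates 1, 2 and 3. Much of this was miR-10a-5p, miR-30a-5p and miR-10b-5p, which alone held 27.2%, 29.8% and 30.3% of counts. By hairpin name, 184 hairpins had both arms in the table and at least 1 arm listed in all 3 libraries. The 5p arm was dominant in 81 by the mean share and the 3p arm in 103. At least 90% of counts lay on 1 arm in 156 of them. In 111 the other arm was listed at 0 in every library, and if each such 0 is set to 9 reads, 62 of the 111 still had at least 90% on the listed arm. Another 35 listed arms had no partner of the same name and were left out.

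Both arms were listed in all 3 libraries for 43 hairpins, 19 with the 5p arm and 24 with the 3p arm dominant. Of these 43, where both arms were measured, 21 had at least 90% on 1 arm. Among those of at least 100 CPM, the most abundant 3p-dominant hairpin was miR-27b. Its 3p arm had 49088, 29911 and 33994 counts against 64, 40 and 43 for the 5p arm, a 5p share of 0.130%, 0.134% and 0.126%. Next in order were miR-151, miR-148a, miR-28a, miR-221 and miR-615, with mean 5p shares of 0.156%, 0.0506%, 1.08%, 0.476% and 0.649%. On the other side, miR-10a kept 99.6% ± 0.0878 of its counts on the 5p arm. The passenger of miR-30a, in contrast, was itself abundant. Its 3p arm held 20723, 8993 and 11711 counts, so the 5p share was 86.7%, 91.9% and 91.0%. Mean CPM of miR-30a-3p was 10770 ± 2599.7, higher than the guide arms of miR-30c and miR-30e, and with miR-30e-3p it formed a seed family of its own, UUUCAGU, at 11384 ± 2691 CPM.

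The hairpins shown next are miR-125a and miR-30e, the nearest to even use among those of at least 100 CPM with both arms listed in every library, then miR-361, in which both arms were well counted and the 3p arm led in each library, and miR-106b, whose 3p arm exceeds the arm for which the hairpin is known. Capitals mark the annotated 5p and 3p arms in RefSeq hairpins of GRCm38.p6.
Mir125a: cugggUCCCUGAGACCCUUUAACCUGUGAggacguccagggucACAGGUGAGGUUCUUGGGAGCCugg
Mir30e: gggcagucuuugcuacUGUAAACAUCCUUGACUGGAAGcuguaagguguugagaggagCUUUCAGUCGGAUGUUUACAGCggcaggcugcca
Mir361: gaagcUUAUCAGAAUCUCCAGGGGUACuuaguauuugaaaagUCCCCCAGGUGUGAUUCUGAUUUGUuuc
Mir106b: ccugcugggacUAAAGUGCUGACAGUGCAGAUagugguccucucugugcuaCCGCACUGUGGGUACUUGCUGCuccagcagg
In miR-125a, a regulator of blood cell and endothelial genes, the 5p share was 52.6% in replicate 1 (1978 of its counts against 1784; 95% Wilson interval 51.0% to 54.2%), 48.1% in replicate 2 (46.4% to 49.7%) and 39.9% in replicate 3 (37.9% to 41.8%). In miR-30e it was 47.3% (45.2% to 49.5%), 64.6% (62.2% to 66.8%) and 64.0% (61.8% to 66.2%). Both hairpins thus changed their dominant arm between libraries by more than counting error. Reads of PCR-amplified libraries are not independent molecules, and these intervals cover counting error only.

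The dominant arm also differed between libraries in the low hairpin miR-193b, whose arms had 20 against 180 counts in replicate 1, 53 against 36 in replicate 2 and 31 against 48 in replicate 3 (5p first). The arms of miR-877, also low, were tied at 94 each in replicate 1, and the 5p arm was ahead in the others, with 38 against 28 and 55 against 54. Further hairpins near even use, at 100 CPM or more, were miR-425 with a 5p share of 68.0% ± 8.03, miR-361 with 30.1% ± 2.002, miR-671 with 29.5% ± 12.4 and miR-99b with 76.3% ± 3.87. In miR-106b the 3p arm had 4163, 1213 and 1585 counts against 157, 90 and 116 for the 5p arm, a 3p share of 96.4%, 93.1% and 93.2%. A similar reversal of the usual name order held for let-7d, whose let-7-seeded 5p arm had 9.20%, 17.9% and 16.2% of its counts. Depth beneath these shares is the sum of both arms in a library, and the widest Wilson interval among the 6 near-even hairpins was ± 8.35 percentage points.

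**Figure D3:**
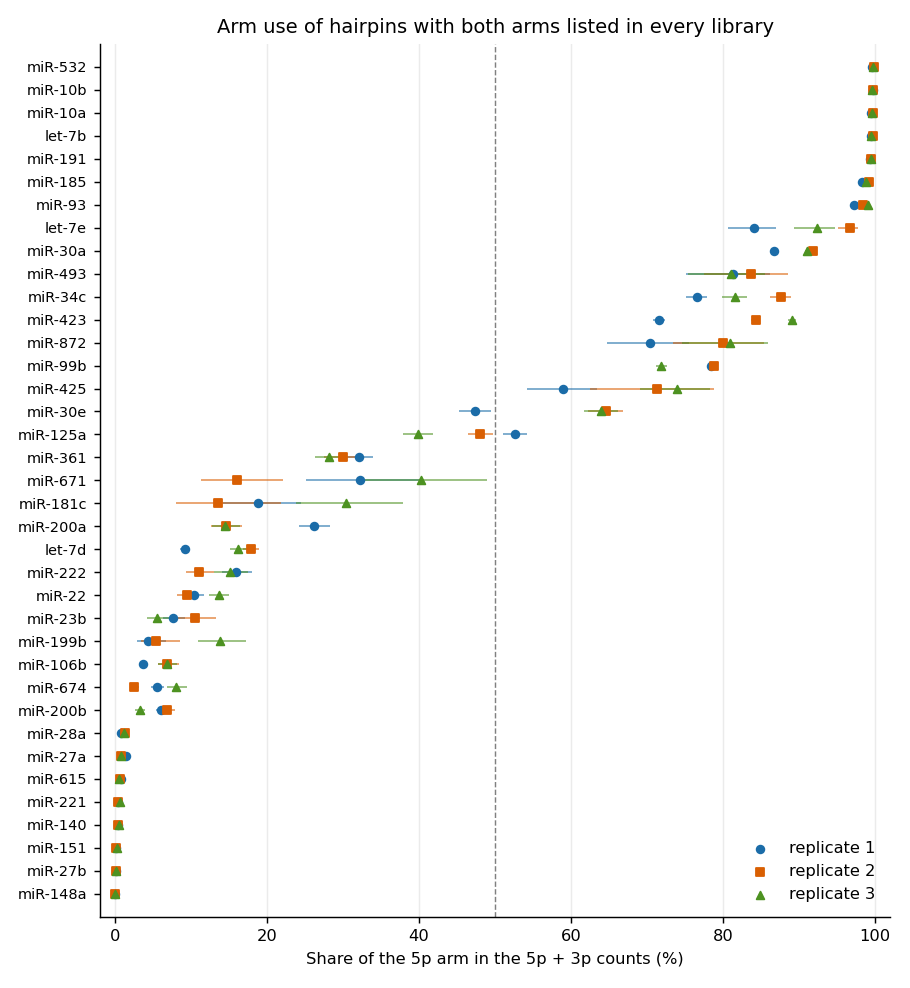
Share of the 5p arm in the 5p and 3p counts for the 37 hairpins with both arms listed in every library and at least 100 CPM in sum, with a point for each library and its 95% Wilson interval as a line. Most hairpins sit near 0% or 100%, and miR-125a and miR-30e lie on both sides of the dashed line at 50%.

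Positions were taken from RefSeq loci of GRCm38, the build the submitters name as mm10. Of the 288 identifiers, 264 could be placed, and neighbouring hairpins on a strand whose starts lie within 10 kb were joined. This gave 34 clusters with at least 2 listed hairpins, covering 118 identifiers and 30.4% ± 2.53 of counts. An identifier with several loci in the table counts in each cluster it could come from, and the table does not hold every locus. Among clusters, 20 had at least 2 hairpins whose identifiers all map to 1 locus of the table. The ratio of the highest to the lowest such hairpin had a median of 16.6, was at least 10 in 11 clusters and at least 100 in 3. Members of a cluster thus differed widely in counted level. The lowest hairpins can be near the listing limit, as were miR-500 at 23.3 CPM and miR-133b at 17.9 CPM. Library preparation by ligation and gel selection can depend on sequence, and its part in these ratios was not tested. Reads here show the level of mature arms and not of the transcript.

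The highest sum belonged to the miR-23b, miR-27b and miR-24-1 cluster on chromosome 13 (63300484 to 63301275, plus strand, within 2010111I01Rik) with 49758, 40163 and 46917 CPM. Of its mean, 65.8% was miR-27b-3p and 32.5% miR-24-3p, which also comes from chromosome 8. The miR-23b-3p arm stood at 646 ± 135 CPM, and the ratio of miR-27b-3p to miR-23b-3p was 43.7, 56.0 and 42.8. In the paralogous miR-23a, miR-27a and miR-24-2 cluster on chromosome 8 (84208518 to 84208921, plus strand) the order was turned: miR-23a-3p, at 11345 ± 3987 CPM, exceeded miR-27a-3p, at 4302 ± 647 CPM, in each library, with ratios of 3.56, 1.69 and 2.69. Its sum was 31022 ± 6648 CPM, of which 47.8% was miR-24-3p, also counted in the chromosome 13 cluster. Without miR-24-3p the sum was 16182 ± 4257 CPM.

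The miR-25, miR-93 and miR-106b cluster lies within the replication gene Mcm7 on chromosome 5 (138165321 to 138165818, minus strand) and had 52254, 28418 and 36618 CPM. Of this, 89.5% was miR-25-3p. Its level was 16.9, 14.2 and 15.8 times that of miR-93-5p, a ratio that varied less than the level itself.

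The let-7c-2 and let-7b cluster on chromosome 15 (85706603 to 85707403) summed to 37177 ± 9072 CPM, and let-7c-5p can also come from the miR-99a and let-7c-1 cluster on chromosome 16 (77598936 to 77599750, within Mir99ahg). The latter summed to 25526 ± 3514 CPM, of which 83.7% was let-7c-5p. The sensory-organ cluster of miR-182, miR-96 and miR-183 on chromosome 6 (30165918 to 30169737, minus strand) had 38563, 32282 and 29493 CPM. It held miR-183-5p at 28460, 24488 and 21155 CPM, miR-182-5p at 10062, 7740 and 8234 CPM, and miR-96-5p at a mean of 66.6 CPM. The ratio of miR-183-5p to miR-182-5p was 2.83, 3.16 and 2.57, while that to miR-96-5p ranged from 204 to 685.

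On chromosome X (7237683 to 7248497, minus strand), introns of the chloride transporter gene Clcn5 hold miR-500, miR-501, miR-362, miR-188 and miR-532, with a sum of 24695 ± 3891 CPM. Nearly all of it was miR-532-5p (72.0%) and miR-501-3p (27.0%), and the highest hairpin exceeded the lowest, miR-500, 765 times in mean CPM. Chloride transport by Clcn5 is known from the kidney tubule. The miR-99b, let-7e and miR-125a cluster on chromosome 17 (17830194 to 17830879, within Spaca6) had 20328 ± 3718 CPM, 65.2% of it miR-99b-5p and 19.8% miR-99b-3p. The let-7d, let-7f-1 and let-7a-1 cluster on chromosome 13 (48536012 to 48538272) had 22145 ± 6477 CPM, led by let-7f-5p and the 3p arm of let-7d. The let-7f-2 and miR-98 cluster in Huwe1 on chromosome X (151912346 to 151913321) could add the same let-7f-5p, beside miR-98-5p at 181 ± 88.0 CPM.

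**Figure D4:**
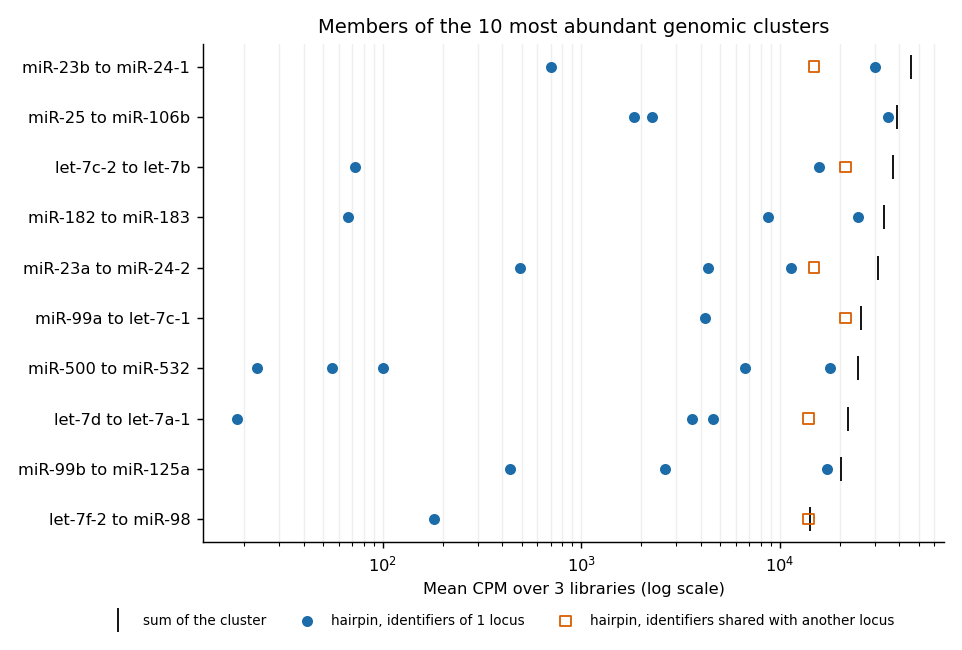
Mean CPM over the 3 libraries (log scale) of each listed hairpin in the 10 clusters of highest sum, with filled points for identifiers of 1 RefSeq locus, open squares for identifiers shared with another locus and a bar for the sum of the cluster; a hairpin with both kinds has both marks. In most clusters of more than 2 hairpins, 1 or 2 of them make up nearly all of the sum, as miR-25 does with 34995 CPM.

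By GENCODE M21, 241 identifiers had a single locus in the table. Of these, 90 lay in an intron of a protein-coding gene of the same strand and held 21.04% ± 0.489 of all miRNA counts. A further 27 overlapped an exon of at least 1 transcript of such a gene, with 13.5% ± 1.73, among them miR-21a in Vmp1 and miR-25 in Mcm7. Another 44 lay in noncoding genes, with 7.05% ± 0.487, and 80 had no such host, with 33.1% ± 0.922, miR-10a and miR-30a included.

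Libraries resembled each other in rank and still differed in level for many identifiers. Across the 288 identifiers, Spearman's rho between libraries was 0.956 to 0.966, a description over identifiers that share a library and are not independent. The median absolute log2 difference in CPM between a pair of libraries was 0.43 to 0.50, and 47 to 53 identifiers differed by more than 2-fold. The median coefficient of variation (CV, the SD as a percent of the mean) was 26.6% over all 288. It was 19.4% for the 24 identifiers of at least 10000 CPM and 32.2% for the 128 under 100 CPM. For the 160 identifiers of at least 100 CPM, the CV exceeded that of Poisson counting in 157, and the medians were 22.6% and 3.12%, so the spread between libraries exceeded counting error.

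Among these 160, the muscle miRNA miR-1a-3p varied most, at 55.9, 120 and 917 CPM, a CV of 132% that rests on replicate 3. Replicate 3 was also highest for miR-143-3p, a smooth muscle and mesenchymal miRNA, at 679, 1151 and 2861 CPM. The same holds for the endothelial miR-126a-3p at 221, 390 and 790 CPM. Replicate 1 was highest for miR-342-3p (1052, 286 and 643 CPM) and for miR-5121 (1194, 621 and 407 CPM), and replicate 2 for miR-1964-3p (175, 426 and 170 CPM). At the other end, miR-101b-3p had 761, 766 and 763 CPM, a CV of 0.367%. Next came the p53-linked miR-34c-5p with a CV of 4.36%, miR-3535 with 4.47%, miR-872-5p with 4.72%, miR-10a-5p with 5.63% and miR-501-3p with 5.63%. These are the lowest of 160 values. For miR-101b-3p, miR-3535 and miR-872-5p the CV was below that of Poisson counting, so it does not show that their levels were unusually steady.

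**Figure D5:**
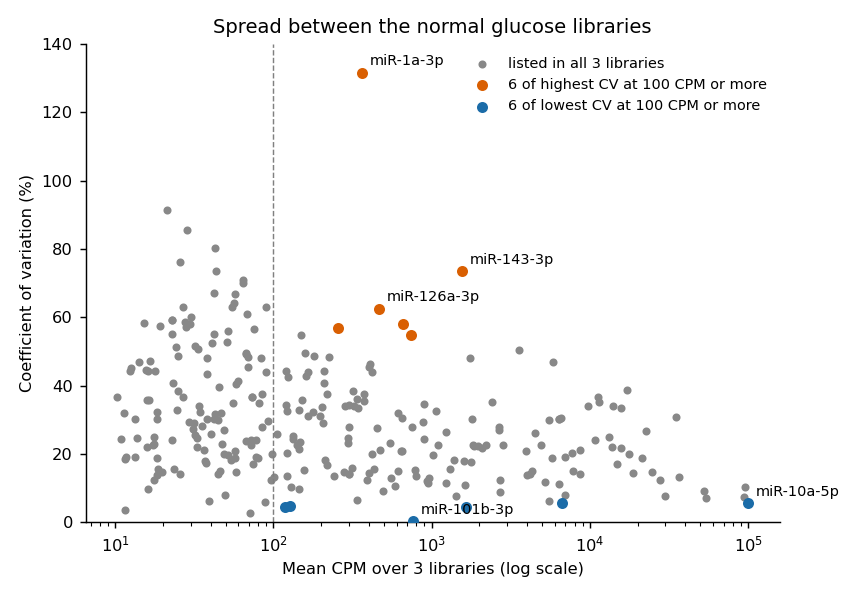
Coefficient of variation over the 3 libraries against mean CPM (log scale) for the 288 identifiers listed in all 3, with the 6 of highest and the 6 of lowest value at 100 CPM or more in colour and a dashed line at 100 CPM. The point of miR-1a-3p, at 132%, stands apart from the rest.

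None of the lists used here is specific to podocytes, and these levels cannot tell podocyte vesicles from other RNA carriers that the polymer brings down. What could be checked are lists typical of other sources. The blood, immune and liver list summed to 21296, 38946 and 29814 CPM, with replicate 1 the lowest. Most of it was miR-122-5p (17097 ± 6636 CPM) and the red cell miRNA miR-486a-5p, which was listed with the same counts as miR-486b-5p (6345 ± 1916 CPM each, so that their shared reads enter that sum more than once). With that pair counted once and CPM rescaled, the list had 23842 CPM. The red cell miR-451a had 198 ± 61.3 CPM, above the median of 145 CPM of all listed identifiers. Other defining members were near the listing limit or at 0: the lymphocyte miR-150-5p 11.7 ± 2.25 CPM, the myeloid miR-223-3p was listed in 2 libraries, and miR-144-3p and miR-142a-3p were listed at 0 in all 3. Of its 9 members 6 were listed in all libraries. The medium held fetal bovine serum during differentiation, the labels do not say whether it had been depleted of its own vesicles, and its part in these levels was not tested.

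The kidney tubule list had 3 of 4 members listed and summed to 2286, 3478 and 3483 CPM, led by miR-192-5p at 2819 ± 636 CPM and miR-194-5p at 141 ± 32.0 CPM, while miR-204-5p was listed at 0. The epithelial miR-200 family reached 3987 ± 447 CPM, mostly from miR-200b-3p (2686 ± 334 CPM) and miR-200a-3p (957 ± 123 CPM), while miR-200c-3p had 15.6 ± 6.95 CPM. Of its 5 members 4 were listed in all libraries. The other, miR-141-3p, was listed in replicate 3 only, at 11.7 CPM. The mesenchymal list summed to 9284 ± 1541 CPM, mostly miR-152-3p (6954 ± 548 CPM) with miR-143-3p (1564 ± 1148 CPM). Its sum thus rests largely on miR-152-3p, which shares its seed with miR-148a-3p. Reads shared by miR-199a-3p and miR-199b-3p (301 ± 42.8 CPM each) enter it more than once. With that pair counted once and CPM rescaled, the list had 9043 CPM. Its member miR-214-3p had 133 ± 32.5 CPM. Of the 8 members 5 were listed in all libraries. The others were miR-145a-5p and miR-199a-5p, each listed in 2 libraries with means of 11.4 and 18.7 CPM, and miR-214-5p, listed at 0. The striated muscle list had 1765, 2599 and 3212 CPM, led by miR-206-3p (1813 ± 409 CPM) and miR-1a-3p (364 ± 479 CPM). Of its 7 members 5 were listed in all libraries, the lowest of them miR-133b-3p at 17.9 ± 7.92 CPM. Here miR-208b-3p was listed in 1 library and miR-208a-3p at 0. The neural list had 2492 ± 816 CPM, of which miR-128-3p gave 2401 ± 841 CPM. Its second member by level, miR-9-3p, had 49.2 ± 3.93 CPM, and miR-219a-5p, miR-137-3p and miR-138-5p were listed at 0. The endothelial list, miR-126a-3p and miR-126a-5p, had 229, 390 and 825 CPM. With identical counts taken once, the median over all listed identifiers was 145 CPM. The members listed in all 3 libraries had medians of 933 CPM in the mesenchymal list, 641 CPM in the miR-200 family, 467 CPM for the single endothelial member, 207 CPM in the striated muscle list, 198 CPM in the blood, immune and liver list, 141 CPM in the tubule list and 49.2 CPM in the neural list. For the families above they were 5661 CPM in let-7 and 898 CPM in miR-30. With the identical pairs entered as listed, the medians were 301 CPM for the mesenchymal list and 3271 CPM for the blood, immune and liver list.

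At the edge of listing, the lowest identifiers in all 3 libraries were miR-7068-3p (11, 10 and 16 counts), let-7j (12, 13 and 14), miR-148a-5p (13, 11 and 17), miR-365-2-5p (18, 12 and 13) and miR-582-3p (14 in each). Just outside, listed in 2 libraries, were miR-199a-5p (50, 0 and 26 counts), miR-9-5p (35, 0 and 30), miR-1199-5p (50, 0 and 13), miR-126a-5p (11, 0 and 38) and miR-1306-5p (39, 14 and 0). In 4 of these 5 the 0 was in replicate 2. Over all identifiers, leaving out replicates 1, 2 and 3 in turn gave 294, 318 and 301 listed in both that remained, against 288 in all 3. The total count of replicate 2, 1087144, was near the 1107224 of replicate 3, though it listed 314 identifiers against 347. The cause was not tested. Counts inside the edge ran from 10 to 18, while counts above 0 just outside it ran from 11 to 50. The identifiers inside were picked as the lowest by mean and those outside as the highest, so these ranges follow from that choice. They show only that some identifiers missed in 1 library had higher counts elsewhere than some listed in all 3.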

How the data were processed

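Small RNA libraries of 3 normal glucose samples were described, with no group comparison and no test. Per the file headers, the authors deposited a total count per mature miRNA identifier and a normalized value. The counts are whole numbers. The deposited normalized values are RPM, equal to the count divided by 1 constant per library, whose meaning no source states; they served as an alternative only. The submitters' processing notes name BWA, bcl2fastq and the mm10 build, with versions and settings not given in the sources used here. CPM, shares, ranks, CVs and 95% Wilson intervals were computed with Python 3.11.15, pandas 2.3.3 and scipy 1.17.1, and TMM factors for an alternative with edgeR 4.0.16 in R 4.3.3. Seeds, arms and loci came from RefSeq (GRCm38.p6), 67 loci without a hairpin entry being placed by their mature arms and 13 identifiers without a mature entry by the name of their locus. Hosts came from GENCODE M21. Functions were tested on simulated data. Named were the 20 highest identifiers, the 10 highest families and clusters, 6 per arm and CV class, 2 per list and 5 on each side of the listing limit. Others, such as miR-30c-5p, were named after their values were seen: miR-30a-3p, miR-30e-3p, miR-30e-5p, miR-106b, let-7d, miR-10a arms, list members at or near 0 and single cluster and family members. Members and lists were chosen with earlier results of these data known.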

Additional observations from a re-analysis of the deposited data

How the results depend on the processing

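Of 126 alternative values over 21 results, 113 stayed within the spread between libraries or, for counts, within 1.5 times. For levels and shares averaged over the libraries, leaving out a library cannot move the value beyond that spread. Deposited normalized values cannot change the share of the 10 highest, nor can TMM scaling change the number of clusters. The count of 113 is therefore partly fixed in advance and does not measure how firm the results are. Arm counts fell with fewer hairpins admitted. The count with at least 90% on 1 arm also depended on the listing limit. It was 156 as reported and 104 with each listed 0 set to 9 reads, the hairpins being the same. With both arms listed in all libraries, 19 hairpins were 5p dominant, 24 were 3p dominant and 21 had at least 90% on 1 arm. With hairpins of at least 100 CPM, 58 were 3p dominant and 98 had at least 90% on 1 arm. With identifiers of several loci left out, clusters numbered 21 and the highest, then that of miR-25, had 39096 CPM. With neighbours within 50 kb the highest cluster had 107701 CPM, since miR-30a and miR-30c-2 on chromosome 1 then join. The median CV was 22.6% at 100 CPM or more and 20.9% to 23.4% when a library was left out, which leaves 2 values per identifier. The GC rho was 0.119 at 100 CPM or more, opposite in sign to the value over all; the cause was not tested. Leaving out a library gave 294 to 318 identifiers listed in all that remained, a share of the 10 highest of 55.1% to 55.6% and 18 to 20 of the 20 highest retained. Placing no identifier by its locus name was an alternative chosen after seeing the data. No paired analysis was possible because a single group was described and no result comes from a test. Identifiers under 6.50, 9.20 and 9.03 CPM in replicates 1, 2 and 3 fall below the lowest listed count and cannot be seen.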

Other observations

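The imprinted Dlk1-Dio3 region on chromosome 12, which is active in placenta, brain and muscle progenitors, contributed many identifiers and few counts. Its cluster from miR-379 to miR-3072 (109709060 to 109747960, plus strand) had 15 identifiers from 14 of 38 hairpins listed in all 3 libraries, and together they summed to 831, 1187 and 1121 CPM. The highest was miR-409-3p, with 32.9% of that sum. The neighbouring cluster around Meg3 (109563692 to 109595388) had 4 identifiers from 3 of 14 hairpins at 845 ± 152 CPM (SD, n = 3), 75.6% of it miR-127-3p.

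On chromosome X, the cluster of miR-322, miR-503, miR-351, miR-542 and miR-450b (53047997 to 53054349, minus strand) summed to 857, 828 and 850 CPM, the closest agreement between libraries among the clusters described here, with 7 identifiers. The miR-221 and miR-222 cluster (19146294 to 19146971), whose miRNAs restrain cell-cycle inhibitors, had 8447, 7224 and 10200 CPM, and miR-221-3p exceeded miR-222-3p 10.3, 6.69 and 12.6 times. The miR-17 cluster on chromosome 14 (115043671 to 115044506, in Mir17hg) held miR-92a-3p, with 87.9% of its sum of 12757 ± 4302 CPM. There miR-20a-5p exceeded miR-17-5p 2.12, 3.09 and 2.18 times, and miR-19a-3p averaged 19.03 CPM. The reads of miR-92a-3p can also come from chromosome X.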
